A study of Rattus norvegicus with 74 samples.

Results

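The data describe RNA in mitochondria isolated from the red inner gastrocnemius, a hindlimb muscle, of exercise-trained (ExT) and sedentary-control (Sed) rats. All rats were wild-type Wistar Kyoto males, sampled at 9 weeks of age, and both arms drank water with 8% deuterium oxide, so no arm lacked that label. Trained rats ran on a motorized treadmill 5 days a week for 4 weeks, for 60 min at 20 m/min once the first week's lighter sessions were over. Sedentary rats stood on a stationary treadmill, and muscle was taken 24 h after the last session. Members were chosen by library label: 15 MT_ExT and 15 MT_Sed libraries, 30 of the 74 libraries of the series, with 1 library per rat. Of 30560 genes in the count table, 37 are encoded by mitochondrial DNA, namely 13 mRNA, 2 rRNA and 22 tRNA genes, and 30523 are nuclear-encoded. Each class was scaled to its own total in every library, so that a change in one class does not move the other. Whole-muscle libraries (SM) of the same 30 rats, from the same arms, are used only where the training effect in mitochondria is set beside that in muscle.

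The mitochondrial genome of mammals encodes subunits of respiratory complexes I, III, IV and V together with the rRNAs and tRNAs that translate them. Both of its strands are transcribed as long precursors that are cut into separate RNAs, and Mt-nd6 is the only mRNA of the light strand. All other mitochondrial proteins, including most respiratory-chain subunits, are encoded in the nucleus and imported. Endurance training is known for raising the mitochondrial content of muscle. The question here is whether the RNA inside the isolated organelle, of either genome, has another composition after training.

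The libraries held 530397 to 9988027 counts in all and 430162 to 1055433 nuclear-encoded counts, so 3 nuclear-encoded counts, taken as the floor, equal 2.84 to 6.97 counts per 1000000 nuclear-encoded counts (CPM). Mitochondrial-genome genes took from 12.9% of all counts (Sed rat 23, 95% Wilson interval 12.87 to 13.01%) to 95.4% (ExT rat 2, 95.4 to 95.4%), an interval for counting error only. At 90% or more stood 3 libraries, ExT rats 2 and 27 and Sed rat 15. Values of fibroblast markers and of 3 non-coding RNAs are also given over the libraries between 20 and 90%, which leaves out 4 libraries under 20% as well. Rats numbered 2 to 16 and 17 to 32 differed in composition. The labels do not say whether the numbers mark cohorts. Both ranges hold both arms equally (7 and 7, then 8 and 8), and every pair of libraries within an arm differed by more than sampling noise (smallest chi-square per degree of freedom 1.204). The share of mitochondrial-genome counts was 13.4 points lower in trained rats (-13.4, exact permutation p = 0.355) among rats 2 to 16 and 9.63 points higher (exact permutation p = 0.419) among rats 17 to 32.

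The composition of mitochondrial-genome RNA was nearly the same in both arms. rRNA made up 69.4, 77.6 and 84.0% (lowest, median, highest) of mitochondrial-genome counts in sedentary libraries and 67.8, 77.9 and 84.4% in trained libraries. The trained mean was 0.103 percentage points higher (SE 1.65, permutation test of 100000 resamples, two-sided, p = 0.9504). mRNA made up 15.9, 22.02 and 30.04% in sedentary and 15.5, 21.7 and 31.8% in trained libraries, a difference of means of -0.106 points (SE 1.61, permutation p = 0.947). The arms overlapped over nearly their whole range. tRNA genes together made up 0.326% ± 0.228 (SD, n = 15) and 0.329% ± 0.177 (SD, n = 15).

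**Figure D1:**
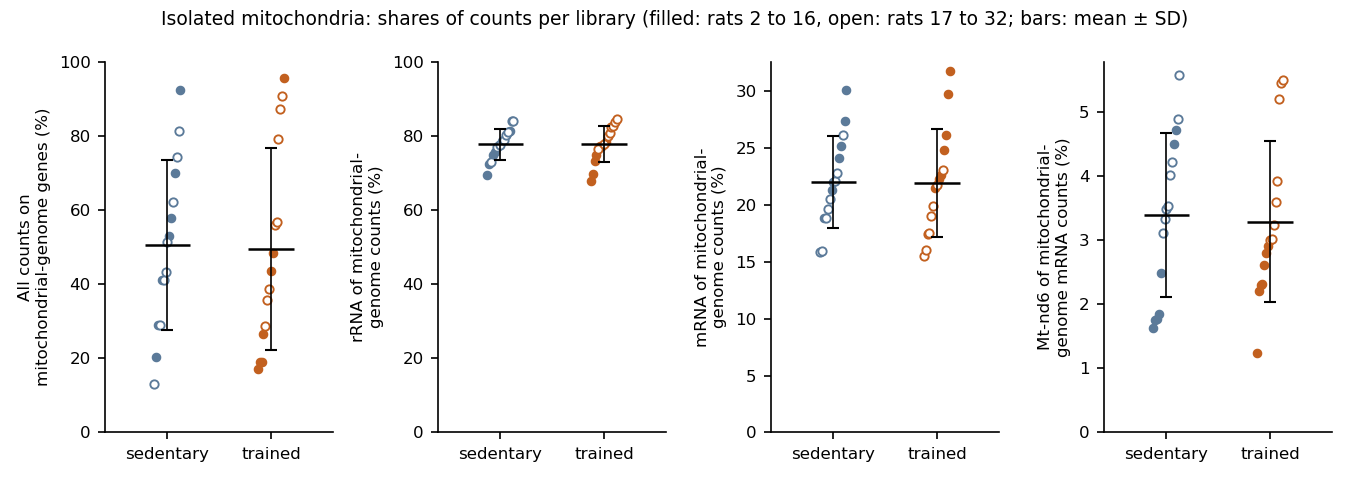
Each point is 1 library of isolated mitochondria, with its percent of counts on the vertical axis and its arm on the horizontal axis; filled points are rats 2 to 16, open points rats 17 to 32, and bars give mean ± SD of 15 libraries. The arms overlap in all 4 panels, whereas filled and open points, which overlap, have means of 24.8 and 19.5% in the mRNA panel and of 2.50 and 4.07% in the Mt-nd6 panel.

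By respiratory complex, the mRNA counts of the mitochondrial genome divided in similar proportions in both arms. Complex I mRNAs took 37.2% ± 2.7 of mRNA counts in sedentary and 36.4% ± 2.67 in trained libraries (SD, n = 15 each). Complex III, for which Mt-cyb is the single mitochondrial-genome subunit, took 10.1% ± 0.823 and 10.5% ± 1.06. Complex IV, the cytochrome c oxidase that uses oxygen, took 46.1% ± 3.14 and 46.5% ± 3.28. Complex V, the ATP synthase, took 6.60% ± 0.525 and 6.61% ± 0.476. Of 23 measures of composition tested in all, 0 differed between the arms after Benjamini-Hochberg adjustment (each q = 0.966, permutation tests), and 0 had an unadjusted p under 0.05. The smallest unadjusted p were 0.135 for the share of miRNA genes and 0.146 for that of odorant and vomeronasal receptor genes. Within rats 2 to 16 the receptor genes alone had an exact permutation p of 0.0204, with q = 0.469.

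None of the 37 mitochondrial-genome genes was called at an adjusted p under 0.05 (edgeR quasi-likelihood test, Benjamini-Hochberg over 37 genes, 0.0% called). The count at an unadjusted p under 0.05 was also 0, DESeq2 called 0, and the median log2 fold change was 0.03. With the 13 mRNAs scaled to their own total, edgeR called 0 of 13 (0.0%), again with 0 at an unadjusted p under 0.05, and DESeq2 called 0. These values are relative to the class total and cannot show a change of all mitochondrial-genome RNA together. Scaled with nuclear-encoded genes in 1 fit, the median of the 37 genes moved to 0.62, with 5 at an unadjusted p under 0.05 and 0 called, so any direction of the whole class depends on the scaling.

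The mRNAs of complex IV lay within narrow bounds. Mt-co1, the catalytic subunit, held 30.6, 35.6 and 42.4% of mRNA counts in sedentary libraries and 29.5, 35.6 and 43.3% in trained libraries. Its log2 fold change was 0.01 (SE 0.050, 95% interval -0.09 to 0.11). Mt-co2, which carries the copper site that takes electrons from cytochrome c, held 4.21, 4.78 and 5.25% against 4.25, 4.72 and 5.22%. At -0.01 (SE 0.030, interval -0.07 to 0.05), its estimate was the most precise of the 13. Mt-co3, a core subunit, held 5.44, 5.998 and 6.95% against 5.55, 6.36 and 6.89%, with a log2 fold change of 0.06 (SE 0.040) and the smallest unadjusted p of the 13, 0.167. For each of these mRNAs the trained and sedentary libraries overlapped.

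Mt-cyb, the cytochrome b of complex III, held 8.92, 10.1 and 11.2% of mRNA counts in sedentary and 8.91, 10.4 and 12.4% in trained libraries (log2 fold change 0.05, SE 0.050). Mt-atp6, the proton channel subunit of complex V, held 5.53, 6.51 and 7.38% against 5.64, 6.65 and 7.18% (0.00, SE 0.043). Mt-atp8, its small partner, held 0.037, 0.075 and 0.237% against 0.039, 0.083 and 0.256%. With a log2 fold change of 0.14, an SE of 0.296 and an interval from -0.46 to 0.73, it was the least precise of the 13. The percentages are not corrected for gene length and are not compared between genes.

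Among the complex I mRNAs the trained arm was within 0.083 log2 units of the sedentary arm throughout. Mt-nd1, Mt-nd2, Mt-nd4 and Mt-nd5, membrane subunits, had log2 fold changes of -0.04 (SE 0.050), -0.04 (SE 0.063), -0.04 (SE 0.039) and -0.01 (SE 0.089). Mt-nd4l, a further membrane subunit, was at -0.01 (SE 0.069). Mt-nd3 held 0.519, 0.705 and 0.877% of mRNA counts in sedentary and 0.424, 0.636 and 0.938% in trained libraries, the lowest estimate of the 13 at -0.08 (SE 0.099, interval -0.28 to 0.12). Mt-nd6, the light-strand mRNA, held 1.63, 3.48 and 5.57% against 1.23, 3.01 and 5.49% (log2 fold change -0.04, SE 0.202, interval -0.45 to 0.37). Over the 13 mRNAs, 12 had a 95% interval within 1.5-fold either way and 11 within 1.25-fold. Within rats 2 to 16 the 13 estimates ran from -0.20 for Mt-nd3 to 0.25 for Mt-atp8. Within rats 17 to 32 they ran from -0.14 for Mt-nd5 to 0.08 for Mt-co1. In neither range was an mRNA called, and the test of the difference between the ranges called 0 of 13.

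**Figure D2:**
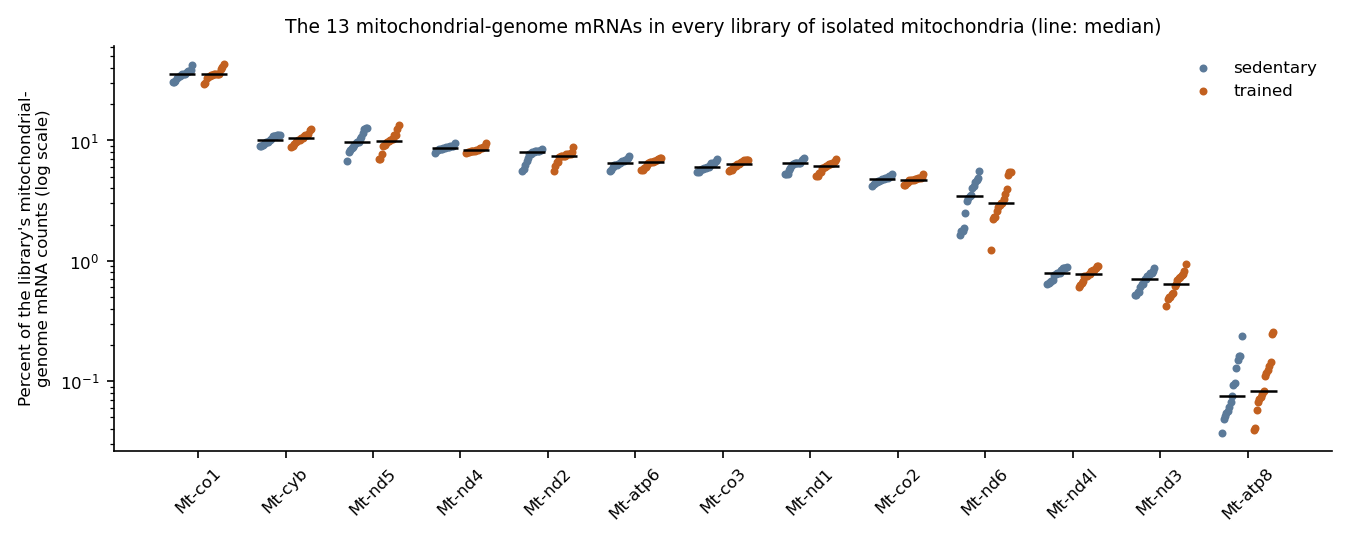
Each point is 1 library, with the percent of its mitochondrial-genome mRNA counts on a log axis and the 13 mRNAs along the horizontal axis; lines are medians of 15 libraries. Trained and sedentary libraries overlap for each mRNA, and the spread between libraries is wide for Mt-nd6 and Mt-atp8.

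The rRNA genes are named AY172581.9 and AY172581.24 in the table, and the sources used here do not say which is the small and which the large subunit rRNA. AY172581.9 held 35.4, 37.0 and 40.0% of mitochondrial-genome counts in sedentary and 35.7, 37.8 and 41.7% in trained libraries, a log2 fold change of 0.03 (SE 0.042). AY172581.24 held 33.7, 40.9 and 47.5% against 32.2, 40.2 and 47.5%, a log2 fold change of -0.03 (SE 0.059), which became 0.63 in the 1 fit over all genes. Of the 22 tRNA genes, 8 had 1000 or more counts over the 30 libraries and log2 fold changes from -0.11 to 0.58, while 12 had fewer than 100 counts. The 3 with the smallest p were AY172581.5 (4 counts in all, p = 0.0577), AY172581.13 (4 counts, p = 0.0717) and AY172581.11 (7 counts, p = 0.0944), each with an adjusted p of 0.978 by edgeR. Counts this low cannot show a difference.

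Set beside whole muscle, the training effect on mitochondrial-genome RNA did not differ by test. In whole muscle, with the mRNAs on their own total, 4 of 13 (30.8%) had an unadjusted p under 0.05 by edgeR, 2 higher and 2 lower. On that total edgeR called 1 of 13 mRNAs (7.69%), Mt-nd3. It held 0.591, 0.768 and 1.02% of mRNA counts in sedentary muscle and 0.478, 0.669 and 0.752% in trained muscle, and fell by 0.26 on the log2 scale (SE 0.071, adjusted p = 0.00414 by edgeR). The trained and sedentary muscle libraries overlapped. Scaled to the total of all mitochondrial-genome genes, Mt-nd3 was at -0.17 in muscle (SE 0.128, adjusted p = 0.804 by edgeR), and 0 of 36 genes tested there were called (0.0%), with 1 at an unadjusted p under 0.05, so the call depends on the scaling. On the mRNA total in mitochondria the Mt-nd3 estimate was -0.08, and the difference of effects, MT minus SM, was 0.18 (SE 0.123, unadjusted p = 0.150 by edgeR). The test of that difference called 0 of 13 mRNAs (0.0%) and 0 of 37 genes (0.0%), with 0 and 1 at an unadjusted p under 0.05. The same rats gave both kinds of library, and with the rat as a block 0 of 13 and 0 of 37 were called.

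**Figure D3:**
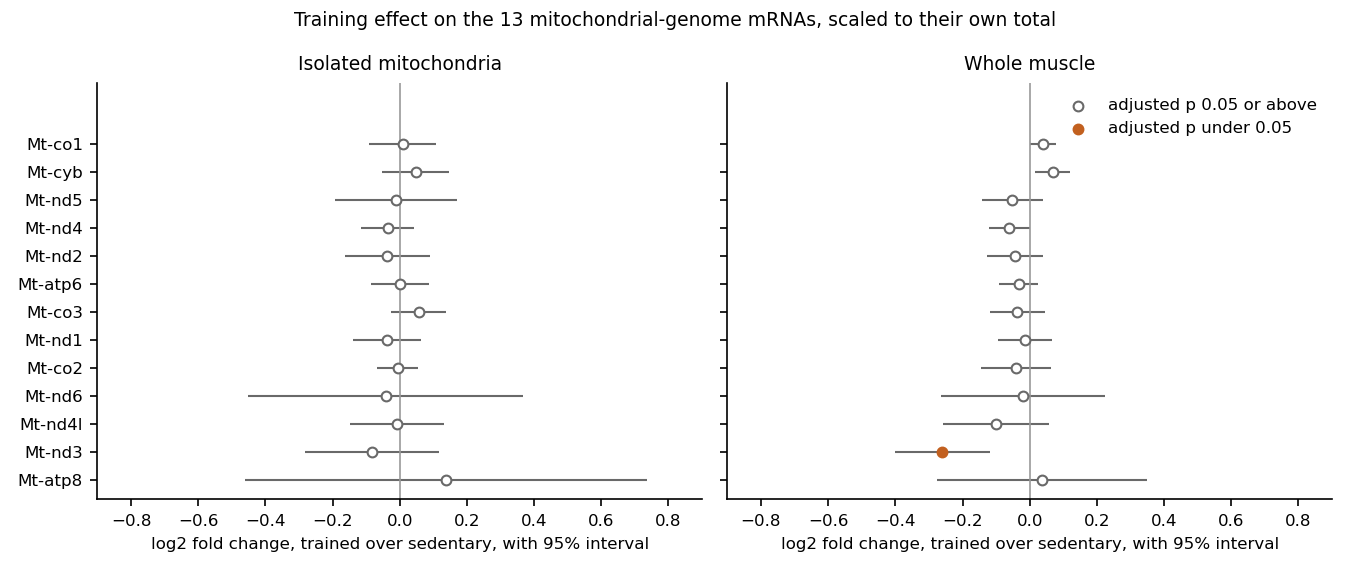
Points are log2 fold changes of trained over sedentary rats with 95% intervals for the 13 mRNAs, left in isolated mitochondria and right in whole muscle, each on its own mRNA total; the filled point marks an adjusted p under 0.05. In mitochondria each interval holds 0, and in whole muscle Mt-nd3 alone, at -0.26, is called on this scaling.

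The same 30 libraries did show called differences along other axes. Between rats 17 to 32 and rats 2 to 16, edgeR called 5 of 13 mRNAs (38.5%) and 19 of 37 genes (51.4%; 2 higher, 5.41%, and 17 lower, 45.9%), in the same model as the arm. At an unadjusted p under 0.05 were 20 of the 37 (54.1%). On the mRNA total, Mt-nd6 was higher in the later rats by 0.70 (log2, SE 0.163, adjusted p = 0.000656 by edgeR), Mt-nd3 by 0.26 (SE 0.090) and Mt-atp6 by 0.10 (SE 0.040). On the same total Mt-atp8 was lower by 1.05 (log2 -1.05, SE 0.231, adjusted p = 0.000628 by edgeR) and Mt-cyb stood at -0.12 (SE 0.046). On the total of all mitochondrial-genome genes AY172581.24 was higher in the later rats by 0.22 (SE 0.041, adjusted p = 9.1e-05 by edgeR). Along the log2 ratio of mitochondrial-genome to nuclear-encoded counts, 12 of 13 mRNAs (92.3%; 4 rising, 30.8%, and 8 falling, 61.5%) and 33 of 37 genes (89.2%; 32 falling, 86.5%) were called. Per doubling of that ratio Mt-co1 rose by 0.07 (SE 0.006) and Mt-nd5 fell by 0.13 (SE 0.010), both on the mRNA total. Values of the 37 genes are relative to a total of which rRNA took 67.8 to 84.4%, so a rise in rRNA lowers the other shares. The ratio shares its counts with the genes tested, and how it depends on the yield or purity of the preparation was not tested.

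Among nuclear-encoded genes, training gave no called gene either. Of 30523 genes, 30012 had a count in some library and 19202 passed edgeR's filter on low counts. edgeR called 0 of 19202 (0.0%), and the smallest adjusted p was 1.00. An unadjusted p under 0.05 was found for 880 genes (4.58%), of which 442 (2.3%) were higher and 438 (2.28%) lower in trained rats. Over all genes tested, 49.1% had an estimate above 0. DESeq2 called 0 and had 888 at an unadjusted p under 0.05. The median log2 fold change was -0.0026 and the median SE 0.131. The 95% interval lay within 2-fold either way for 19174 genes and within 1.5-fold for 17831 (92.9%). Precision followed the level: the median SE was 0.192 for genes under 20 CPM and 0.0785 for the 1283 genes at 100 CPM or more.

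**Figure D4:**
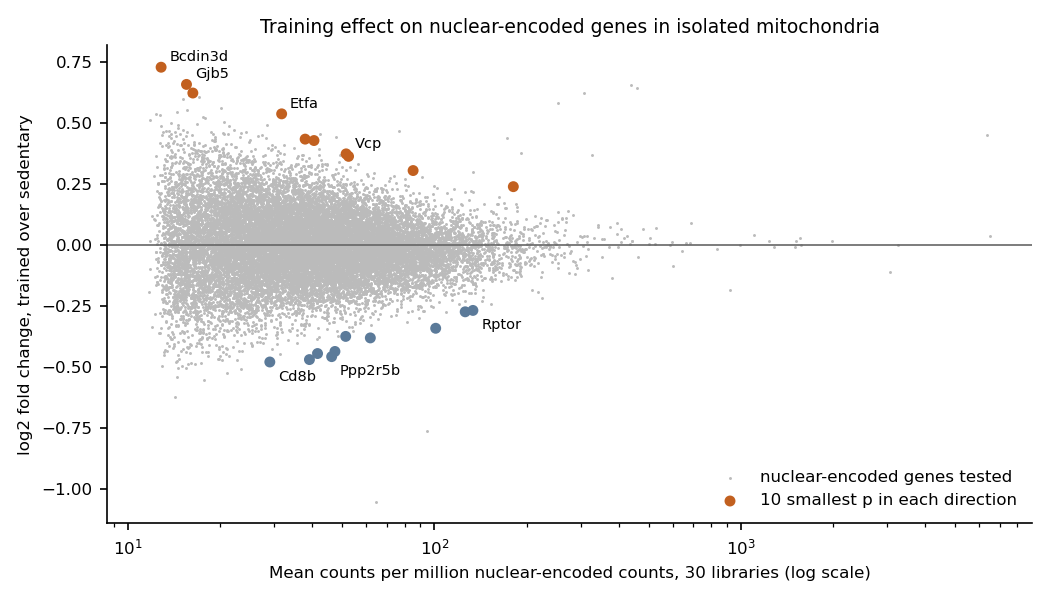
Each grey point is 1 of 19202 nuclear-encoded genes, with its mean level in CPM on a log axis and its log2 fold change of trained over sedentary rats; orange (higher) and blue (lower) points are the 10 genes with the smallest p in each direction. The spread narrows as the level rises, and no gene is called.

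**Figure D5:**
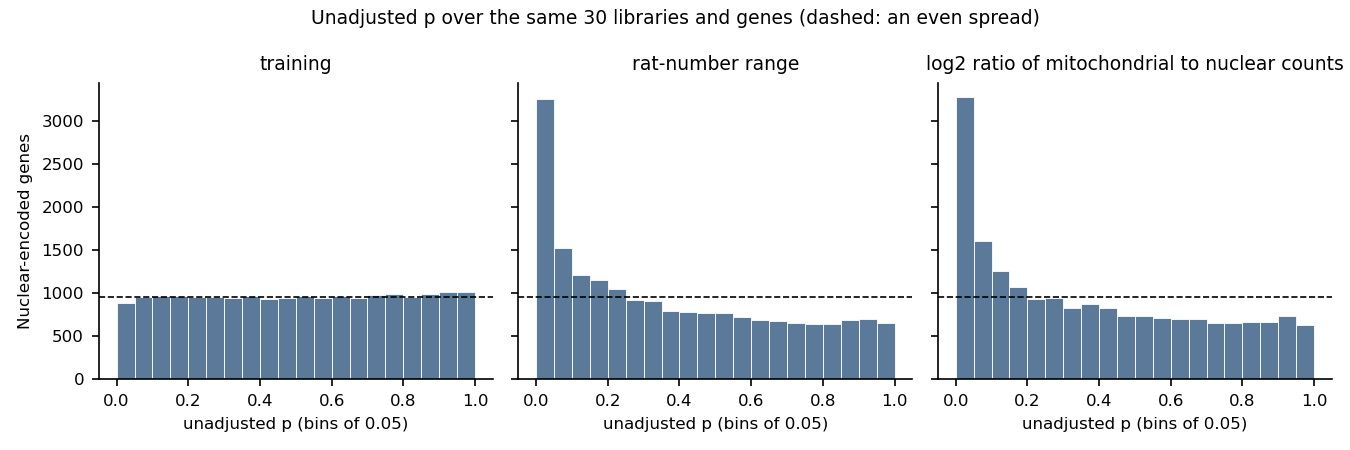
Bars count nuclear-encoded genes by unadjusted p in bins of 0.05 for 3 terms over the same 30 libraries; the dashed line is an even spread. The first bin holds 880 genes for training, 3256 for the rat-number range and 3282 for the log2 ratio.

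The other terms called nuclear-encoded genes in the same libraries. The rat-number range called 315 of 19202 (1.64%), with 124 higher and 191 lower in the later rats, and the log2 ratio called 453 (2.36%; 216 rising, 1.12%, and 237 falling, 1.23%). The test of whether the training effect differed between the ranges called 0 of 19202 (0.0%, edgeR), with 802 at an unadjusted p under 0.05. DESeq2 was not run on these terms.

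With no gene called, the genes closest to a call are given as ranked by p. Etfa, the alpha subunit of the electron transfer flavoprotein that passes electrons from fatty acid oxidation to the respiratory chain, had the smallest p. It stood at 16.8, 26.2 and 34.1 CPM in sedentary and 25.1, 33.3 and 72.0 CPM in trained libraries. The highest values were those of ExT rats 28 (72.0 CPM) and 27 (56.3 CPM), with 87.3 and 90.6% of counts on mitochondrial-genome genes. ExT rat 2, with 95.4%, stood at 30.65 CPM. The groups overlapped, with 7 sedentary libraries below the lowest trained one and 7 trained libraries above the highest sedentary one. Its log2 fold change was 0.54 (SE 0.141, p = 0.000212, adjusted p = 1.00 by edgeR), beside 0.22 in whole muscle (adjusted p = 0.328). It was 0.41 within rats 2 to 16 and 0.62 within rats 17 to 32.

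The next genes on the higher side were AABR07069837.1 (0.24), Herc3 (0.31), a ubiquitin ligase, Vcp (0.37), an ATPase that extracts ubiquitinated proteins, and Tax1bp1 (0.36), an autophagy receptor. Vcp stood at 28.2, 45.9 and 59.9 CPM in sedentary and 38.6, 57.6 and 73.3 CPM in trained libraries. Cpox (0.43), a mitochondrial enzyme of heme synthesis, stood at 20.0, 33.5 and 54.0 CPM against 30.6, 43.9 and 66.2 CPM. They were followed by Gjb5 (0.66), a connexin, Slc5a12 (0.44), a lactate transporter, Bcdin3d (0.73), an RNA methyltransferase, and Olr1536 (0.62), an odorant receptor. All are log2 fold changes with an adjusted p of 1.00 by edgeR, and the arms overlapped for each.

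On the lower side the smallest p belonged to Ppp2r5b, a regulatory subunit of protein phosphatase 2A. It stood at 33.5, 52.1 and 85.4 CPM in sedentary and 18.1, 42.3 and 51.8 CPM in trained libraries (log2 fold change -0.46, SE 0.125, p = 0.000391, adjusted p = 1.00 by edgeR). Of the sedentary libraries 8 lay above the highest trained one. Cyp11a1 (-0.45), the mitochondrial enzyme that starts steroid synthesis, and Coro2a (-0.44), an actin-binding protein, came next by p. Fam110a was at -0.38. Rptor, the raptor subunit of mTOR complex 1, stood at 92.3, 151.5 and 198.9 CPM against 94.4, 120.5 and 139.6 CPM (-0.27, SE 0.077). Sbno2 (-0.34), Igsf21 (-0.47), Ptprs (-0.27), a receptor phosphatase, Syt11 (-0.37), a synaptotagmin, and Cd8b (-0.48), a T cell co-receptor chain, completed the 10. The arms overlapped for each of these genes too. In sedentary rats Cyp11a1, Coro2a, Igsf21 and Cd8b averaged 48.1, 54.1, 45.7 and 33.9 CPM in mitochondria. In sedentary muscle they averaged 0.013, 0.258, 0.020 and 0.052 CPM. Each of the 10 averaged more in mitochondria than in muscle, and Ptprs was closest at 138.0 beside 102.8 CPM. What the counts of genes nearly absent from muscle are was not tested.

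Nuclear-encoded subunits of the respiratory chain did not pass the test in either direction. For complex I, 26 of the 36 listed genes in the table could be tested, 0 were called, 0 had an unadjusted p under 0.05, and the median log2 fold change was 0.06, against -0.0026 over all genes. Ndufs7, a core subunit with an iron-sulphur cluster, had medians of 78.6 CPM in sedentary and 88.4 CPM in trained libraries (0.12, SE 0.104). For complexes II to V, 32 of 43 were tested with 0 called and a median of 0.05. Sdha, the flavoprotein of complex II, had medians of 53.0 and 58.1 CPM (0.14, SE 0.106), and Atp5f1a, the ATP synthase alpha subunit, 46.2 and 56.9 CPM (0.19, SE 0.116). The 95% interval of each tested gene of both lists lay within 2-fold either way. Genes that passed the filter are those counted often enough in these libraries, and the counts say nothing of the listed genes that did not.

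Genes that keep and express mitochondrial DNA were also uncalled, with 35 of 36 tested and a median of -0.02. Unadjusted p under 0.05 were found for 3 of the 35 (8.57%, beside 4.58% of all nuclear-encoded genes). Lrpprc, which stabilises mitochondrial mRNAs, stood at 54.4, 87.9 and 135.1 CPM in sedentary and 54.6, 71.6 and 102.8 CPM in trained libraries (-0.21, SE 0.095). Elac2, which cuts tRNA 3′ ends from the precursor, was at -0.18 (SE 0.087). Trmt10c, a subunit of mitochondrial RNase P, which cuts the 5′ ends, was at 0.31 (SE 0.147). Polg, the mitochondrial DNA polymerase, was at -0.03 (SE 0.089) and Polrmt, the RNA polymerase, at -0.00 (SE 0.128). Of the 73 mitochondrial ribosomal protein genes 67 were tested, 0 called, with 5 at an unadjusted p under 0.05 (7.46%, beside the same 4.58%) and a median of -0.01.

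Metabolic lists held no called gene either. Of 27 genes of the TCA cycle and pyruvate entry 26 were tested, with 0 called and a median of 0.03. Of 23 genes of fatty acid oxidation 22 were tested, 0 called, with a median of -0.01, and Etfa was the single member at an unadjusted p under 0.05. Cpt1b, which admits fatty acids to the muscle mitochondrion, had medians of 72.5 and 69.9 CPM (-0.03, SE 0.094). Among 29 genes of the outer membrane and protein import, 24 were tested and 0 called, with a median of 0.05. Vdac1, the main outer-membrane channel, stood at 63.1, 81.9 and 111.0 CPM in sedentary and 51.0, 66.6 and 96.1 CPM in trained libraries (-0.27, SE 0.094, unadjusted p = 0.00479 by edgeR, adjusted p = 1.00). Timm22, the inner-membrane carrier translocase, was at 0.34 (SE 0.141). Of 27 genes known to respond to endurance training 26 were tested, 0 were called, 0 had an unadjusted p under 0.05 and the median was 0.03. Nrf1, a regulator of mitochondrial biogenesis, was at -0.09 (SE 0.085), Hk2, hexokinase of muscle, at -0.04 (SE 0.088) and Mb, myoglobin, at 0.04 (SE 0.110).

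Genes of muscle fibres and of other cells were detected in the mitochondrial libraries at similar levels in both arms. Of 10 slow-fibre genes 10 were tested and 0 called (median 0.04). Myh7, the slow myosin heavy chain, had medians of 169.2 and 169.5 CPM (-0.02, SE 0.178), and Tpm3, a slow-fibre tropomyosin, was at 0.20 (SE 0.101, unadjusted p = 0.0490 by edgeR). Of 13 fast-fibre genes 13 were tested and 0 called (median 0.07). That median was -0.14 within rats 2 to 16 and 0.25 within rats 17 to 32. The 10 slow-fibre genes summed to a median of 562.8 CPM in sedentary and 560.9 CPM in trained libraries.

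Fibroblast markers had the highest median of the marker lists, 0.18, and 10 of 10 lay above 0, although 0 were called. Within rats 2 to 16, 7 of 10 lay above 0 (median 0.07), and within rats 17 to 32, 10 of 10 (median 0.27). Summed, they reached 814.8, 1056 and 5436 CPM in sedentary and 855.5, 1062 and 9295 CPM in trained libraries, so the medians were alike and single libraries were high. Col1a1, type I collagen, was at 0.65 (SE 0.478) and Col3a1, type III collagen, at 0.66 (SE 0.589). The 3 libraries above 90% mitochondrial-genome counts, of which 2 are trained, were the highest for Col1a1. In the libraries between 20 and 90% (10 trained, 13 sedentary) Col1a1 was at 0.00 (SE 0.271), Col3a1 at 0.13 (SE 0.340) and the list's median at 0.09. Postn, a matrix protein of fibroblasts, was at 0.22 (SE 0.109) and at 0.10 (SE 0.118) in those libraries. The 4 libraries under 20% are left out of these values too.

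Medians of the other marker lists lay between -0.08 and 0.06. Endothelial markers had a median of -0.02 (9 of 9 tested), immune markers -0.01 (10 of 10), red blood cell markers -0.03 (6 of 8), fat cell markers -0.08 (8 of 8), nerve and Schwann cell markers -0.01 (7 of 8), satellite cell markers -0.05 (6 of 6) and sarcoplasmic reticulum markers 0.06 (8 of 9). In none of them was a member called by edgeR. Adipoq, the fat cell hormone adiponectin, was at -0.42 (SE 0.208) and Plin1, which coats fat droplets, at -0.30 (SE 0.126), both at an unadjusted p under 0.05, and so was Cd3e, a T cell receptor subunit, at -0.26 (SE 0.129). Other members lay above 0, namely 3 of 8 fat cell markers, up to 0.12 for Fabp4, and 4 of 10 immune markers, up to 0.18 for Lyz2. Immune markers summed to 433.9, 566.5 and 609.1 CPM in sedentary and 491.3, 549.5 and 594.4 CPM in trained libraries. In whole muscle the immune markers summed to a median of 135.8 CPM. Fat cell markers summed to medians of 264.0 CPM in sedentary and 239.5 CPM in trained mitochondrial libraries, beside 453.2 CPM in muscle. Satellite cell markers summed to a sedentary median of 235.4 CPM beside 47.8 CPM in muscle. Nerve and Schwann cell markers stood at 295.8 beside 130.1 CPM, and red blood cell markers at 221.5 beside 178.9 CPM. Endothelial and sarcoplasmic reticulum markers were lower than in muscle, at 803.5 and 804.4 beside 928.6 and 12588 CPM. How marker counts in isolated mitochondria relate to cell number or to background counts was not tested. Fewer cells of a type, less RNA per cell and a change in background counts cannot be told apart in such bulk libraries.

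Among other gene families, 46 of 68 tested cytosolic ribosomal protein genes were above 0 (median 0.06), beside 49.1% of all nuclear-encoded genes, with 6 at an unadjusted p under 0.05 (8.82%, beside 4.58%) and 0 called. Of 1262 odorant and vomeronasal receptor genes 455 were tested, of which 286 were above 0 (median 0.06), 22 had an unadjusted p under 0.05 (4.84%, beside 4.58%) and 0 were called. Their summed level had medians of 16354 CPM in sedentary and 17452 CPM in trained mitochondrial libraries, beside 11.9 CPM in whole muscle. Slow-fibre genes went the other way, at 562.8 and 560.9 CPM beside 26059 CPM. What these receptor counts are was not tested, nor was their bearing on the other nuclear-encoded levels and on the differences between mitochondria and muscle. Of 38 tested mitochondrial solute carriers 16 were above 0 (median -0.01) and 0 were called.

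The title of the series speaks of small and long nuclear-encoded RNAs in mitochondria. Of 2488 lncRNA genes 1479 were tested and 0 called. Their median log2 fold change was 0.003, and 66 had an unadjusted p under 0.05 (4.46%, beside 4.58% of all nuclear-encoded genes). Rpph1, the RNA of RNase P, was counted 10, 59 and 415 times in sedentary and 8, 40 and 324 times in trained libraries. Its log2 fold change was 0.03 (SE 0.539, interval -1.07 to 1.14). It rose by 0.72 per doubling of the ratio of mitochondrial-genome to nuclear-encoded counts (SE 0.054, adjusted p = 1.2e-10 by edgeR). The RNA of RNase MRP, added to the listed RNAs after its values were seen, was counted 6, 44 and 416 times against 5, 34 and 137 times (-0.76, SE 0.529). H19, an imprinted RNA that is also a miRNA precursor, was at 0.04 (SE 0.276) and rose by 0.30 per doubling of the ratio (SE 0.037). The arms overlapped for all 3. In the libraries between 20 and 90% Rpph1 was at -0.10 (SE 0.427), the RNA of RNase MRP at -0.58 (SE 0.614) and H19 at 0.09 (SE 0.159).

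Mature miRNAs guide Argonaute proteins to mRNAs through the seed, bases 2 to 8. The sequences of 5 miRNAs named in work on muscle or mitochondria, taken from RefSeq (GRCr8 table, in which 374 of the 444 miRNA genes were matched by symbol), are shown because the counts below refer to their genes, with the seed in capitals.
miR-206-3p: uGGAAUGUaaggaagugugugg
miR-133b-3p: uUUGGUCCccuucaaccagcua
miR-181c-5p: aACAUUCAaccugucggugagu
miR-23a-3p: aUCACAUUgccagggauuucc
miR-23b-3p: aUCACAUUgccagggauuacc
The last 2 share their seed. A count falls on a miRNA gene as a whole, so mature miRNA, hairpin and any longer transcript cannot be told apart. Mir206, a muscle miRNA, was counted 0, 3 and 12 times in sedentary and 0, 2 and 8 times in trained libraries. Mir133b, its neighbour in the genome, was counted 0, 2 and 5 times against 1, 3 and 6 times. Mir181c, described in heart mitochondria, had at most 5 counts in a library, Mir23a at most 3 and Mir23b at most 4. None of the 444 miRNA genes passed the filter on low counts. Without a filter, 384 were tested, 0 were called by edgeR and 20 had an unadjusted p under 0.05, beside 1365 of 30012 genes (4.55%) in that fit. More counted were Mir320a (161 counts in all, log2 fold change -0.15, SE 0.285) and Mir129-2 (153 counts). In that fit Mir129-2 was at -0.66 (SE 0.301, unadjusted p = 0.0301 by edgeR) and was not called. How large a difference in a single miRNA gene could be detected at this depth was not tested. As a class, miRNA genes took 0.0770% ± 0.00822 of nuclear-encoded counts in sedentary and 0.0724% ± 0.00814 in trained libraries (SD, n = 15 each). None of the 1512 snRNA and 1706 snoRNA genes passed the filter, and snRNA genes took 0.237% ± 0.0252 and 0.238% ± 0.0244.

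In the whole muscle of the same rats nuclear-encoded genes were called, which allowed their values in mitochondria to be read. In muscle 48 of 13552 genes were called (0.354%), each higher in trained rats. Over all 13552, 67.6% had an estimate above 0. At an unadjusted p under 0.05 by edgeR were 1802 higher and 322 lower. The muscle fit was scaled to its own totals and was not repeated under another scaling. Of the 47 called genes that could be tested in mitochondria, 20 were higher in trained rats (42.6%, beside 48.3% of the 12676 genes tested in both). Of the same 47, 2 had an unadjusted p under 0.05 and 0 were called in mitochondria. Their median log2 fold change was -0.02 in mitochondria and 0.47 in muscle, where the genes were chosen for their change. Cox7a1, the muscle form of a complex IV subunit, was at 0.80 in muscle (adjusted p = 0.0156 by edgeR) and 0.10 in mitochondria (SE 0.127). Got1, the cytosolic aspartate aminotransferase of the malate-aspartate shuttle, was at 0.48 and -0.05 (SE 0.082). Gys1, muscle glycogen synthase, was at 0.26 and 0.01 (SE 0.092), and Rtn4ip1, a mitochondrial protein, at 0.37 and 0.20 (SE 0.126). Levels differed in both directions. In sedentary rats Cox7a1 averaged 38.8 CPM in mitochondria beside 4.19 CPM in muscle, and Rtn4ip1 39.4 beside 22.2 CPM. Got1 averaged 103.9 beside 422.7 CPM and Gys1 73.4 beside 421.5 CPM. Whether counts of these genes in mitochondrial libraries could carry the change seen in muscle was not tested. The p of muscle and of the difference are not independent for genes chosen in muscle, so no test over the 48 is given.

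The test of the difference itself, MT minus SM, ran over 27847 nuclear-encoded genes and called 5 (0.018%). An unadjusted p under 0.05 by edgeR was found for 2413 (8.67%), of which 813 (2.92%) were higher and 1600 (5.75%) lower. Over all 27847, 45.5% of the estimates lay above 0. Tcte1, a component of cilia and sperm tails, was counted 13, 33 and 82 times in sedentary and 52, 146 and 239 times in trained muscle, and 21, 45 and 70 against 16, 37 and 62 times in mitochondria. It rose by 1.74 (log2, SE 0.208) in muscle, was at -0.14 (SE 0.110) in mitochondria, and the difference was -1.89 (SE 0.243, adjusted p = 3e-06 by edgeR). Rgl3, listed as a pseudogene in the table, rose by 0.64 in muscle and was at -0.30 (SE 0.108) in mitochondria, a difference of -0.95 (SE 0.178, adjusted p = 0.00496 by edgeR, 0.0462 with the rat as a block). Slc29a4, a monoamine transporter, differed by -1.42 (SE 0.262), with an adjusted p of 0.00470 that became 0.133 with the block. Cyct, the testis cytochrome c, and ENSRNOG00000065488 differed by 2.88 and -3.45, on 0 to 9 and 0 to 7 counts per muscle library. Neither passed the filter on low counts in muscle alone, and ENSRNOG00000065488 did not in mitochondria alone either. They entered the test of the difference through their counts in mitochondria, so a training effect in muscle was not tested for them. The adjusted p of Cyct became 0.0567 with the block.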

How the data were processed

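Counts per gene are the authors' deposited whole-number counts. FastQC 0.74, cutadapt 4.6, STAR 2.7.11a, HTSeq and mRatBN7.2 are named in the submitters' processing notes. The annotation release and strand setting are not given in the sources used here, so overlapping and near-identical genes are uncertain. Per the labels, mitochondria were captured by immunoprecipitation and treated with RNase-A and proteinase-K, and ribosome-depleted libraries were made from 10 ng (MT) or 50 ng (SM) of RNA. Which rRNA gene is which and gene lengths were not used here.

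Each class was tested with edgeR 4.0.16 (quasi-likelihood, robust, own totals as library size, no scaling factors, filterByExpr for nuclear-encoded genes, none for the 37), with Benjamini-Hochberg adjustment, DESeq2 1.42.0 as an alternative, and permutation tests for shares. The code was tested on simulated data. Named were all mitochondrial-genome mRNAs and rRNAs, 3 tRNA genes, the 10 genes of at least 5 CPM with the smallest p per direction, and list members by p or level. The members, lists, rat-number split and alternatives were chosen with earlier results of these data known. The tests of the range and ratio terms themselves, both terms together, the 20 to 90% subset and the mRNA test of MT minus SM were added after seeing the data. The arms share no rats. MT and SM are paired by rat: deviations of the same rat correlated at a median of 0.014 over 30 pairs.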

Additional observations from a re-analysis of the deposited data

Results flagged for a closer look

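The training effect differed between isolated mitochondria and whole muscle by the test of the difference itself for 5 nuclear-encoded genes, given as MT minus SM on the log2 scale. Tcte1 differed by -1.89, Slc29a4 by -1.42 and Rgl3 by -0.95, with the larger change in muscle. Cyct differed by 2.88 and ENSRNOG00000065488 by -3.45, and both rest on muscle libraries with few counts. Both failed the filter on low counts in muscle alone, so these 2 differences do not show a training effect in muscle. Cyct had a count in 9 of 15 sedentary and 1 of 15 trained muscle libraries, and ENSRNOG00000065488 in 2 and 11.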

How the results depend on the processing

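The count of called genes was 0 for the 37 mitochondrial-genome genes, the 13 mRNAs and the nuclear-encoded genes under each alternative run: TMM, RLE and DESeq2, terms for rat-number range and log2 ratio, each range alone, other filters, thinning and the 20 to 90% subset. The median of the 37 genes was 0.29 within rats 2 to 16, -0.10 within rats 17 to 32 and 0.62 in the 1 fit over all genes. For nuclear-encoded genes the unadjusted p under 0.05 numbered 724 (thinned) to 1365 (no filter). Among 128 named nuclear-encoded genes the sign changed for 27 within rats 2 to 16, 21 within rats 17 to 32, 18 in the subset, 13 after thinning and at most 3 elsewhere, none of them called, and a change of sign inside the reported 95% interval is not counted as a reversal. Outside that interval with a changed sign were AY172581.24 in the 1 fit over all genes (0.63), Hspa5 within rats 2 to 16 (-0.066), and Flrt2 (-0.11) and Npr3 (-0.25) within rats 17 to 32. Without regard to sign, 7 of the 128 lay outside it within rats 2 to 16 and 2 within rats 17 to 32. Of 5 named rRNA and tRNA genes, 2 lay outside it within rats 2 to 16 and 2 in the 1 fit. No paired analysis was possible for trained against sedentary because the arms share no rat numbers. With the rat as a block, MT minus SM again called 5 genes, of which 3 are shared. Slc37a2 (-0.75) and Lgr6 (-0.76) were gained, and Cyct (2.87) and Slc29a4 (-1.35) were lost. MT minus SM was also run with TMM factors. Of 8 estimates compared under the names of these genes, 1 changed sign and 0 left the 95% interval of the fit without factors. A name can cover more than 1 gene entry. The changed sign was not that of any of the 5 genes called without the block, whose intervals exclude 0.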
